A study of Homo sapiens with 6 samples.

Results

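The regulators described here are 10 genes that govern or mark the epithelial-mesenchymal transition (EMT): the transcription factors SNAI1, SNAI2, TWIST1, TWIST2, ZEB1, ZEB2 and GRHL2, the splicing regulators ESRP1 and ESRP2, and the intermediate filament gene VIM. They were found by gene symbol among the 61806 genes of the deposited table, and all 10 were present. RNA was sequenced from MDA-MB-231, an established triple-negative breast cancer cell line with a mesenchymal appearance, in 6 libraries from 3 lines. Per the titles, the lines shHMGA2-1 and shHMGA2-2 each expressed a different short hairpin RNA (shRNA) against HMGA2, a chromatin protein that binds AT-rich DNA. The control line is named shNC in the titles and WT in the library names. That it carried a control shRNA therefore rests on the titles. Each line gave 2 libraries. The shRNAs were brought in by lentivirus under puromycin selection, and per the study's methods the infected cells were then diluted to single clones, which is not stated for shNC. A knockdown group is therefore a line grown from 1 clone, so the effect of the shRNA and a difference between clones cannot be told apart. Nothing in the labels says that the 2 libraries of a line came from separate cultures, so p-values measure the spread between these libraries only, which may be technical.

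During EMT, epithelial cells loosen their junctions and take up a migratory shape. SNAI, ZEB and TWIST proteins bind E-boxes in the promoters of epithelial genes such as the E-cadherin gene CDH1 and recruit corepressors there. GRHL2 works in the opposite direction, holding epithelial genes active and restraining ZEB1, while ESRP1 and ESRP2 bind pre-mRNA and set the epithelial form of exons in genes such as FGFR2, CD44 and CTNND1. ZEB proteins and the miR-200 microRNAs repress each other, and ZEB1 also represses ESRP1. Vimentin, the product of VIM, is the filament protein by which mesenchymal cells are recognised.

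The libraries held 16461178 to 17167293 counts. HMGA2 had 2126 and 2161 counts in shNC against 858 and 989 in shHMGA2-1 and against 435 and 482 in shHMGA2-2, so the 3 lines did not overlap. It was 2.45-fold lower in shHMGA2-1 (log2 fold change -1.29 ± 0.09 SE, adjusted p = 2.17e-11) and 4.94-fold lower in shHMGA2-2 (log2 fold change -2.31 ± 0.09, adjusted p = 2.11e-16), in a quasi-likelihood fit by edgeR, with p adjusted by Benjamini-Hochberg across the 16110 genes that were tested, as throughout. Among markers of the mesenchymal and triple-negative type, VIM ranked 32 to 39 of all genes by FPKM (fragments per kilobase of exon, scaled to the size of the library). CDH1 had 0 to 4 counts a library, and the hormone receptor genes ESR1 and PGR had at most 12 and 2. Of 10 leukocyte markers, the summed level was 0.308 to 1.65 CPM, the count scaled to the size of the library. ERBB2, which encodes the receptor HER2, was expressed, with means of 70.8 CPM in shNC, 97.5 in shHMGA2-1 and 96.5 in shHMGA2-2. The mesenchymal marker CDH2 was low, with means of 0.369, 0.029 and 0.520 CPM in the same order. The 2 libraries of shHMGA2-1 differed from each other more than the other pairs did (chi-square per degree of freedom 6.21, against 2.03 for shNC and 2.91 for shHMGA2-2).

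In the shHMGA2-2 line ZEB1 and ZEB2 fell by 2.83-fold and 2.44-fold against control, while SNAI2 rose 4.17-fold and ESRP2 6.36-fold. In the shHMGA2-1 line only ZEB1 passed the test, with a fall of 1.23-fold. VIM stayed among the most abundant genes in all 6 libraries. TWIST1 and TWIST2 had no count in any of them, GRHL2 had 2 counts in a single control library, and SNAI1 and ESRP1 stayed at or below 12 counts. These 5 low genes did not reach the minimum of about 10 counts in 2 libraries that testing asked for, so 5 members were tested.

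Against shNC, 1 member was lower and 0 were higher in shHMGA2-1 at an adjusted p under 0.05, where 17.6% of all tested genes were lower and 15.8% higher. None of these changes reached 2-fold, which 3.59% of tested genes did in the lower and 4.89% in the higher direction. In shHMGA2-2 against shNC all 5 tested members passed, 2 higher and 3 lower, where 29.5% of tested genes were higher and 29.2% lower. Of these, SNAI2 and ESRP2 rose and ZEB1 and ZEB2 fell by at least 2-fold, as did 11.7% and 9.65% of tested genes. Between the knockdown lines, 2 members were higher and 2 lower in shHMGA2-2 than in shHMGA2-1, all by at least 2-fold. Here 24.5% of tested genes were higher and 25.7% lower, and 7.83% and 7.27% were so by at least 2-fold. Both comparisons with control use the same 2 shNC libraries, so their values are set side by side below and not combined.

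**Figure D1:**
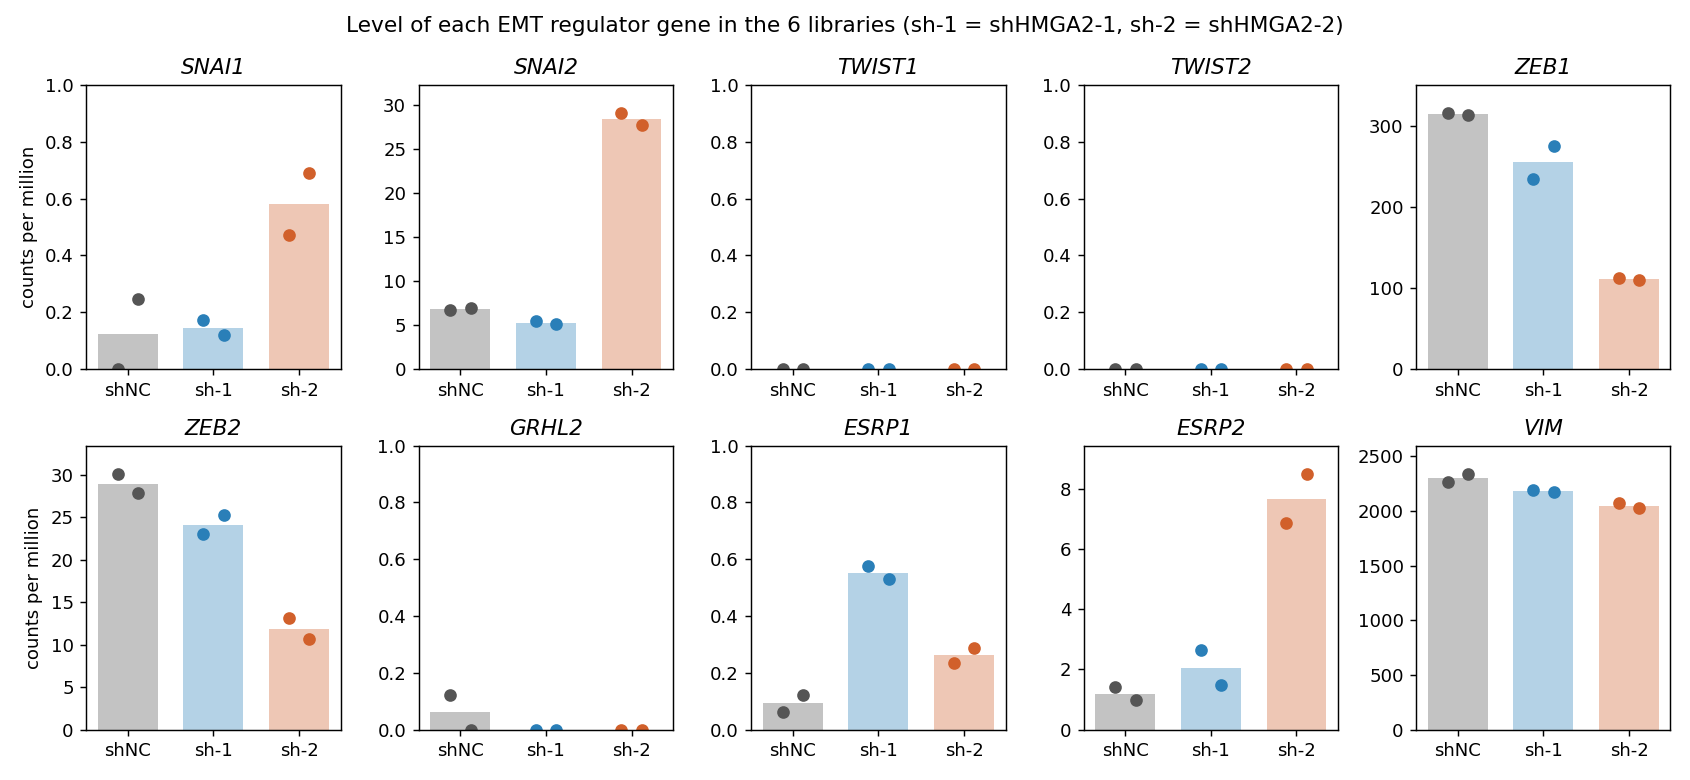
Level of each of the 10 genes in the 6 libraries, in CPM on a linear axis from 0 that differs between panels; points are libraries and bars the mean of the 2 libraries of a line. ZEB1 and ZEB2 are lowest and SNAI2 and ESRP2 highest in shHMGA2-2, TWIST1 and TWIST2 are at 0 throughout, and VIM lies between 2025 and 2338 CPM.

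ZEB1 and ZEB2 encode zinc finger and homeodomain repressors that bind paired E-boxes. ZEB1 (ENSG00000148516) spans bases 31318495 to 31529814 of chromosome 10, plus strand, in GRCh38 as the deposited table gives it. It had 5132 and 5086 counts in shNC against 4078 and 4677 in shHMGA2-1 and against 1904 and 1919 in shHMGA2-2. The lines did not overlap, and they stood in the order shNC, shHMGA2-1, shHMGA2-2. In normalised units this was 314 ± 1.88 CPM (SD, n = 2) in shNC, 255 ± 28.6 in shHMGA2-1 and 111 ± 1.75 in shHMGA2-2. ZEB1 was 1.23-fold lower in shHMGA2-1 than in shNC (log2 fold change -0.30 ± 0.07 SE, edgeR adjusted p = 0.00191). In shHMGA2-2 it was 2.83-fold lower than in shNC (-1.50 ± 0.07, adjusted p = 1.13e-14) and also lower than in shHMGA2-1 (-1.20 ± 0.07, adjusted p = 1.29e-12). The smaller of these changes was lost with limma on log2(FPKM + 1), where it was -0.23 with an adjusted p of 0.0548. It was -0.19 (adjusted p = 0.0128) without the first shHMGA2-1 library and -0.42 (1.33e-06) without the second. ZEB1-AS1, an antisense RNA transcribed away from the ZEB1 start region, had 308 and 310 counts in shNC against 234 and 249 in shHMGA2-1 and against 120 and 116 in shHMGA2-2. Its change in shHMGA2-2 was -1.47 ± 0.14 (adjusted p = 2.19e-09). The strand setting of the counting is not given in the sources used here, so reads where the genes overlap cannot be told apart.

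ZEB2 (ENSG00000169554), on the minus strand of chromosome 2 from 144364364 to 144521057, was the scarcer ZEB gene. It had 489 and 452 counts in shNC against 399 and 429 in shHMGA2-1 and against 222 and 186 in shHMGA2-2. All 3 lines were again apart, with means of 28.95 ± 1.60, 24.1 ± 1.61 and 11.9 ± 1.73 CPM (SD, n = 2). In shHMGA2-2 ZEB2 was 2.44-fold lower than in shNC (log2 fold change -1.28 ± 0.12 SE, edgeR adjusted p = 3.2e-09) and lower than in shHMGA2-1 (-1.02 ± 0.13, adjusted p = 2.54e-07). In shHMGA2-1 its log2 fold change was -0.26 ± 0.11 with an adjusted p of 0.0821, and it was -0.33 (adjusted p = 0.0406) without the second shHMGA2-1 library, -0.20 (0.257) without the first, -0.21 (0.371) without the first shNC library and -0.32 (0.151) without the second. The antisense RNA ZEB2-AS1 had 0 to 3 counts. On the per-length FPKM scale ZEB1 stood 25.9 to 34.0 times above ZEB2 in every library, with quotients of 25.9 and 31.2 in shHMGA2-2 that overlapped those of the other lines.

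The miR-200 microRNAs are known to pair with the 3′ UTRs of both ZEB mRNAs. Their mature sequences (RefSeq, GRCh38.p14) are shown because each pairing starts from the seed, bases 2 to 8, given in capitals. The first 3 share 1 seed, AAUACUG, and the other 2 share AACACUG.
hsa-miR-200b-3p, chr1:1167160-1167181, plus strand: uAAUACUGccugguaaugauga
hsa-miR-200c-3p, chr12:6963742-6963764, plus strand: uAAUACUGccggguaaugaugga
hsa-miR-429, chr1:1169055-1169076, plus strand: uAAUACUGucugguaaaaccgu
hsa-miR-200a-3p, chr1:1167916-1167937, plus strand: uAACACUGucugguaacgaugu
hsa-miR-141-3p, chr12:6964155-6964176, plus strand: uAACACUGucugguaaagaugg

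The 7 bases that pair with these seeds were searched on the sense strand of the longest annotated 3′ UTR of each member (GENCODE version 29, GRCh38). ZEB1 held 9 such matches in 2549 bases, 6 to the first seed and 3 to the second, and ZEB2 also held 9 in 5370 bases, 5 and 4. SNAI2 held 1, GRHL2 1 and ESRP1 2, while SNAI1, TWIST1, TWIST2, ESRP2 and VIM held 0. Of 19133 genes with an annotated 3′ UTR, 28.2% held at least 1 match and 0.0314% held 9 or more. These shares are not matched on length, and the median 3′ UTR of all these genes was 1104 bases, shorter than those of ZEB1 and ZEB2. A match is a description of the letters and not a test of pairing. For each ZEB gene, 1 match to each seed is shown in 30 bases of the sense strand, with the matching bases in capitals.
ZEB1, chr10:31527618-31527647, plus strand, 369 bases into the 3′ UTR: attgttttatcttatCAGTATTatcactct
ZEB1, chr10:31528782-31528811, plus strand, 1533 bases into the 3′ UTR: tgagatttgatttaaCAGTGTTatgttaac
ZEB2, chr2:144388982-144389011, minus strand, 455 bases into the 3′ UTR: cgcactacaatgcatCAGTATTatgattcc
ZEB2, chr2:144389229-144389258, minus strand, 208 bases into the 3′ UTR: tgcaaaaattttgtaCAGTGTTaaggccta

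The miR-200 host and precursors that were looked up, MIR200CHG, MIR200B and MIR200C, and the miR-205 host MIR205HG, had 0 counts in each of the 6 libraries. The precursors of miR-200a, miR-429 and miR-141 were not looked up. A count of 0 allows up to 3 counts, or 0.172 to 0.185 CPM a library, for counting error only. The study's methods do not state how the libraries were made, and libraries made by mRNA capture do not measure mature microRNAs. Levels of mature microRNAs were not analysed here. Of the 11 microRNA hosts and antisense RNAs on the list, 9 were in the table and 3 were tested. MIR34AHG, another microRNA host, had summed counts of 2 in shNC, 13 in shHMGA2-1 and 25 in shHMGA2-2 and was not tested. ZEB1-AS1 fell in both lines, in shHMGA2-1 by 0.43 ± 0.13 (edgeR adjusted p = 0.00961, but 0.0592 and 0.071 without the first or second shNC library and 0.0512 without the first shHMGA2-1 library). In shHMGA2-2, SNAI3-AS1 (-0.90, adjusted p = 0.0342) and VIM-AS1 (0.42, adjusted p = 0.0459) also passed. Neither held with DESeq2 (adjusted p = 0.111 and 0.151) or without the second shNC library (0.209 and 0.271). SNAI3-AS1 did not hold without the second shHMGA2-2 library (0.334), nor VIM-AS1 without the first shNC (0.0572) or first shHMGA2-2 library (0.408).

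**Figure D2:**
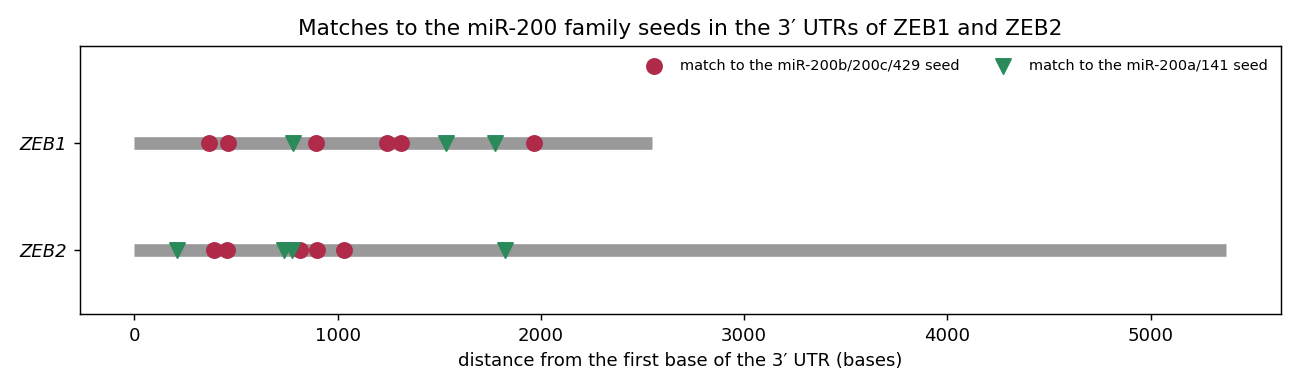
Positions of matches to the seed AAUACUG (circles) and the seed AACACUG (triangles) along the 3′ UTRs of ZEB1 and ZEB2, in bases from the first base of the UTR (grey bars, drawn to length). ZEB1 carries 9 matches in 2549 bases and ZEB2 9 in 5370, the last of them 1825 bases into the latter.

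Promoter windows, 250 bases before to 50 after a RefSeq start (GRCh38.p14), were matched by symbol for 4 of the 10 genes: ZEB1 with 7 windows, and ZEB2, VIM and TWIST2 with 1 each. SNAI1, SNAI2, TWIST1, GRHL2, ESRP1 and ESRP2 had none. The E-box bound by SNAI and ZEB proteins, CACCTG, was searched on both strands, where it reads CAGGTG on the other. It stood in 2 of the 10 windows, both of ZEB1, and in 20.6% of all 35116 windows. The third ZEB1 window held it 3 times, with first bases at -242, -85 and 34 from the start, a number that 0.635% of all windows reach. That share is for a single window, whereas this one is the richest of 7 for the gene, so the values are a description. The ZEB2, VIM and TWIST2 windows held no such letters. The GRHL motif AACCGGTT, the same on both strands, was in 0 of the 10 windows and in 0.134% of all. A and T made up 38.3% of that ZEB1 window, 51.0% of the ZEB2 window and 52.0% of the VIM window, beside a median of 41.3% over all windows. These 3 windows are shown 5′ to 3′ with the E-box in capitals, for the ZEB genes, which fell, and for the filament gene, whose change was the smallest of the 5 tested in shHMGA2-2.
ZEB1, chr10:31318966-31319265, plus strand: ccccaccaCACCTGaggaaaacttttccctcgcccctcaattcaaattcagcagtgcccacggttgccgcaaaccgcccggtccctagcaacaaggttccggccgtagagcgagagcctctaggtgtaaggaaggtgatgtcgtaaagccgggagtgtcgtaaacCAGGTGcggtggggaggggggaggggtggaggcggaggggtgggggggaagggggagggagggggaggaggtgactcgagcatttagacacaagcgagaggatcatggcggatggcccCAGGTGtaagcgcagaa
ZEB2, chr2:144520070-144520369, minus strand: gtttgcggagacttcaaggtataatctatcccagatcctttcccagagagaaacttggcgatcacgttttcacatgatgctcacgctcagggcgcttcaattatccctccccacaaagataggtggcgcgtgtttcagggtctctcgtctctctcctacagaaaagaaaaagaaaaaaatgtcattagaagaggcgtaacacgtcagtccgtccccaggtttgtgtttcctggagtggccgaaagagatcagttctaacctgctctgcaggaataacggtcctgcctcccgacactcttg
VIM, chr10:17227991-17228290, plus strand: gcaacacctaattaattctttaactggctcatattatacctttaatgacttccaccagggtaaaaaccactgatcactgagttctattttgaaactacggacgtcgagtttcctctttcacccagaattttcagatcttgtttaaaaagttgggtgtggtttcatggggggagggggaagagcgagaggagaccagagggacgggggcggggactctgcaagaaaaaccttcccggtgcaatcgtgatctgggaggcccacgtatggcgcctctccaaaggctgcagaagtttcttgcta

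SNAI1 and SNAI2 encode the zinc finger repressors Snail and Slug. SNAI2 had 109 and 112 counts in shNC against 95 and 86 in shHMGA2-1 and against 492 and 483 in shHMGA2-2. The shHMGA2-2 libraries stood far above the other 4, and the shHMGA2-1 libraries lay just below control without overlap. The means were 6.80 ± 0.133 CPM (SD, n = 2) in shNC, 5.27 ± 0.289 in shHMGA2-1 and 28.4 ± 0.973 in shHMGA2-2. SNAI2 was 4.17-fold higher in shHMGA2-2 than in shNC (log2 fold change 2.06 ± 0.13 SE, edgeR adjusted p = 2.3e-12) and higher than in shHMGA2-1 (2.43 ± 0.14, adjusted p = 2.82e-13). In shHMGA2-1 its log2 fold change against shNC was -0.37 ± 0.16 with an adjusted p of 0.0908. SNAI2 (ENSG00000019549) lies on the minus strand of chromosome 8 from 48917598 to 48921740, and the antisense gene that overlaps its start had at most 3 counts. SNAI2 thus moved against the ZEB genes in shHMGA2-2.

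SNAI1 (ENSG00000124216; chromosome 20, plus strand, 49982980 to 49988886) was far scarcer. It had 0 and 4 counts in shNC against 3 and 2 in shHMGA2-1 and against 8 and 12 in shHMGA2-2. The shHMGA2-2 counts were the highest, and their sum of 20 had an exact Poisson 95% interval of 12.2 to 30.9, beside 1.09 to 10.2 around the 4 counts of shNC. Reads without molecular identifiers are not independent molecules, so such intervals hold for counting error alone. When every gene was tested without a filter on low counts, the log2 fold change was 2.15 with an adjusted p of 0.0696, which did not pass. SNAI3, the remaining family member, had 10 and 9 counts in shNC against 8 and 7 in shHMGA2-1 and against 2 and 3 in shHMGA2-2, too few to be tested. A processed copy of SNAI1 and one of ZEB2 in the table had 0 counts throughout.

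TWIST1 and TWIST2, which encode basic helix-loop-helix factors that induce EMT in development, had 0 counts in each library. TWIST1 (ENSG00000122691) lies on the minus strand of chromosome 7 from 19020991 to 19117636, and TWIST2 (ENSG00000233608) on chromosome 2, plus strand, from 238848032 to 238910534. For counting error only, a count of 0 still allows a level of up to 0.185 CPM in a library. GRHL2 (ENSG00000083307; chromosome 8, plus strand, 101492439 to 101669726), the epithelial activator, had 2 and 0 counts in shNC and 0 in the other 4 libraries. No difference was detectable for these 3 genes.

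ESRP2 (ENSG00000103067), on the minus strand of chromosome 16 from 68229033 to 68238102, encodes an epithelial splicing regulatory protein. It had 23 and 16 counts in shNC against 46 and 25 in shHMGA2-1 and against 116 and 148 in shHMGA2-2. The shHMGA2-2 libraries were the highest, and those of shHMGA2-1 lay just above control, with the lower of them 2 counts over the higher control library. The means were 1.20 ± 0.304 CPM (SD, n = 2), 2.06 ± 0.833 and 7.67 ± 1.15. ESRP2 was 6.36-fold higher in shHMGA2-2 than in shNC (log2 fold change 2.67 ± 0.29 SE, edgeR adjusted p = 1.89e-08) and higher than in shHMGA2-1 (1.89 ± 0.26, adjusted p = 1.2e-06). In shHMGA2-1 it was 0.78 ± 0.35 with an adjusted p of 0.0877, and it ranged with the library left out. It was 1.14 (adjusted p = 0.0148) without the second library of that line, 0.29 (0.652) without the first, 1.06 (0.103) without the first shNC library and 0.54 (0.399) without the second. NFATC3, which overlaps the end of ESRP2 on the opposite strand, had 419 to 559 counts and was not highest in shHMGA2-2.

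ESRP1 (ENSG00000104413; chromosome 8, plus strand, 94641074 to 94707466), the close relative of ESRP2, had another order. It had 1 and 2 counts in shNC against 10 and 9 in shHMGA2-1 and against 4 and 5 in shHMGA2-2. The 3 lines did not overlap, with shHMGA2-1 the highest, and the summed counts were 3 (exact Poisson 95% interval 0.619 to 8.77), 19 (11.4 to 29.7) and 9 (4.12 to 17.1). Without the filter on low counts the log2 fold change was 2.47 in shHMGA2-1 (edgeR adjusted p = 0.0625) and 1.41 in shHMGA2-2 (adjusted p = 0.409), and neither passed. By FPKM, ESRP2 stood 21.6 and 7.52 times above ESRP1 in shNC, 4.32 and 2.61 times in shHMGA2-1 and 27.2 and 27.8 times in shHMGA2-2. The shNC quotients rest on 1 and 2 ESRP1 counts.

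VIM (ENSG00000026025; chromosome 10, plus strand, 17228241 to 17237593) had 36759 and 37976 counts in shNC against 38106 and 36933 in shHMGA2-1 and against 35046 and 35316 in shHMGA2-2. In raw counts the shNC and shHMGA2-1 libraries overlapped, and those of shHMGA2-2 were the lowest by a small margin. After scaling to CPM the lines were apart. The means were 2300 ± 53.8 CPM (SD, n = 2), 2186 ± 14.4 and 2048 ± 32.4. In shHMGA2-1 the log2 fold change was -0.07 (95% interval -0.18 to 0.03, edgeR adjusted p = 0.306). In shHMGA2-2 it was -0.17 ± 0.05 SE, a fall of 1.12-fold that passed with an adjusted p of 0.0077. This call did not hold with upper quartile scaling (-0.05, adjusted p = 0.389), with limma on log2(FPKM + 1) (-0.05, adjusted p = 0.414) or without the second shNC library (-0.14, adjusted p = 0.129). Between the knockdown lines the difference was -0.09 with an adjusted p of 0.136. VIM-AS1, an antisense RNA that overlaps the VIM start, had 98 to 169 counts, with its highest counts in shHMGA2-2. In bulk RNA, fewer cells that express a gene and less of its RNA per cell cannot be told apart.

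**Figure D3:**
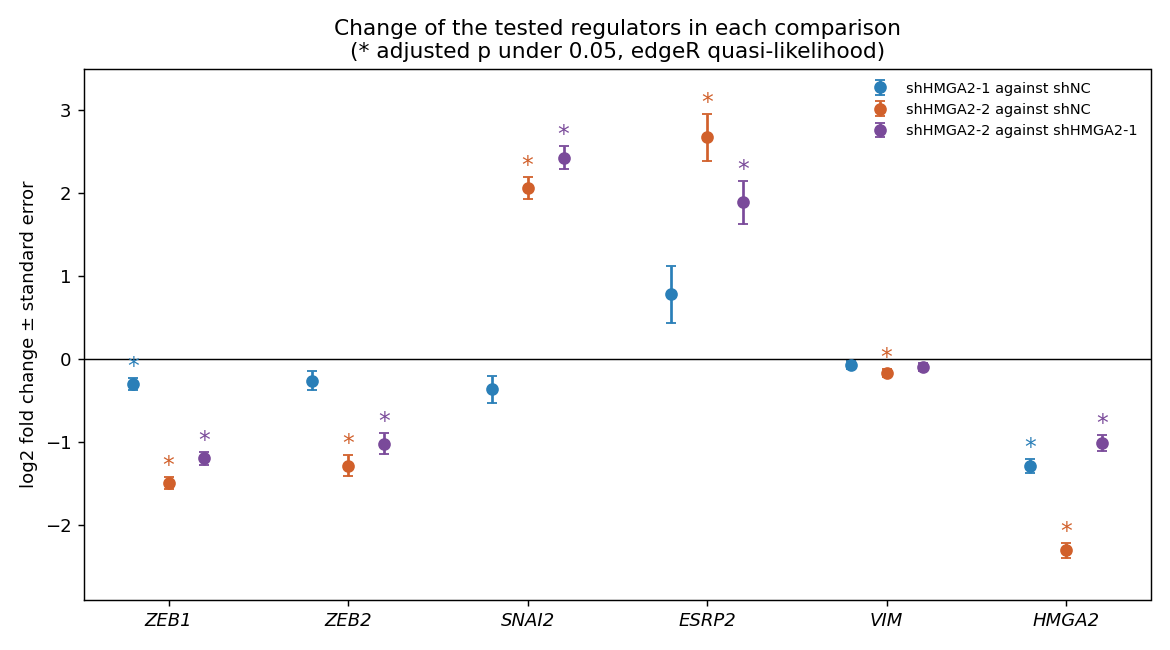
Log2 fold change and standard error of the 5 tested regulators and of HMGA2 in each of 3 comparisons; an asterisk marks an adjusted p under 0.05. In shHMGA2-2 against shNC, ZEB1 (-1.50) and ZEB2 (-1.28) lie below 0 and SNAI2 (2.06) and ESRP2 (2.67) above it, while in shHMGA2-1 only ZEB1 (-0.30) passed.

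The balance between the regulators in a library can be read from FPKM, which corrects for gene length. ZEB1 was at 34.95 and 34.63 FPKM in shNC, 27.5 and 31.6 in shHMGA2-1 and 13.4 in both shHMGA2-2 libraries. SNAI2 was at 1.96 and 2.01, 1.69 and 1.53, and 9.11 and 8.87 FPKM. The ratio of ZEB1 to SNAI2 was therefore 17.9 and 17.2 in shNC and 16.3 and 20.6 in shHMGA2-1, which overlap, but 1.47 and 1.51 in shHMGA2-2. In all 6 libraries VIM was the highest of the 10 genes and ZEB1 the next. SNAI2 was the next after these, at 1.53 to 2.01 FPKM in shNC and shHMGA2-1 against 0.89 to 1.10 for ZEB2. The order of ZEB2 and ESRP2 differed between the lines: ZEB2 at 0.89 to 1.10 FPKM was above ESRP2 at 0.18 to 0.52 in shNC and shHMGA2-1, and in shHMGA2-2 ESRP2 at 1.36 and 1.72 was above ZEB2 at 0.52 and 0.43. SNAI1 at 0 to 0.42 FPKM and ESRP1 at 0.01 to 0.12 were the lowest with counts in more than 1 library. The ratio of VIM to ZEB1 was 11.97 and 12.5 in shNC, 15.6 and 13.2 in shHMGA2-1 and 30.8 in both shHMGA2-2 libraries.

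When the 4 knockdown libraries were taken as a single group against shNC, where the difference between the lines counts as error, 0 of the 5 tested members passed in edgeR, beside 5.26% of all tested genes in either direction. ESRP2 had a log2 fold change of 2.01 ± 0.78 SE with an adjusted p of 0.176. DESeq2 and limma with either pseudocount also called 0. ZEB1 (-0.78, adjusted p = 0.269), ZEB2 (-0.68, 0.274), SNAI2 (1.31, 0.36) and VIM (-0.12, 0.307) did not pass.

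Other transcription factors known to promote EMT did not share a direction. The counts of this list and of those below stand beside 29.5% of all tested genes higher and 29.2% lower in shHMGA2-2. In shHMGA2-1 these shares were 15.8% and 17.6%. By at least 2-fold they were 11.7% and 9.65% in shHMGA2-2, and 4.89% and 3.59% in shHMGA2-1. Of the 16 on the list, 10 were tested, and in shHMGA2-2, 2 rose and 7 fell, with a median log2 fold change of -0.30 beside 0.03 over all tested genes. In shHMGA2-1, 3 rose and 5 fell, with a median of -0.24 beside 0.01. That rising count was 1 without the second shNC library, without the second shHMGA2-1 library and with DESeq2, and the falling count was 3 without the first shNC library. KLF8, a Krüppel-like factor, had 8 and 12 counts in shNC against 95 and 115 in shHMGA2-1 and against 73 and 89 in shHMGA2-2. It was higher in both knockdown lines, by 3.30 ± 0.31 and 2.92 ± 0.32 on the log2 scale (edgeR adjusted p = 6.4e-09 and 2.59e-08), and was the only one of the list that rose in each. KLF8 reached the minimum count only through these lines, where it is high, so its tests and the counts of its list are a description. SOX9, a factor that acts with Slug in mammary stem cells, had 359 and 375 counts in shNC against 246 and 261 in shHMGA2-1 and against 1839 and 1755 in shHMGA2-2. It fell in shHMGA2-1 (-0.61 ± 0.11, adjusted p = 9.74e-05) and rose in shHMGA2-2 (2.21 ± 0.09, adjusted p = 6.81e-16). SOX4 fell in shHMGA2-2 (-1.66 ± 0.19, adjusted p = 5.97e-08), from 183 and 153 counts to 48 and 64. FOXQ1 had 25 and 22 counts in shNC against 10 and 5 in shHMGA2-1 and against 24 in both shHMGA2-2 libraries; its change in shHMGA2-1 (-1.71, adjusted p = 0.00879) did not hold without the second library of that line (-1.32, adjusted p = 0.0739) or the first of shNC (-1.62, adjusted p = 0.0517).

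Transcription factors of epithelial identity also split. Of 16, 9 were tested, and in shHMGA2-2, 2 rose and 3 fell, each by at least 2-fold. In shHMGA2-1, 0 rose and 5 fell, a count that was 0 without the second shNC library, 2 without the first, and 3 without the first shHMGA2-1 library or with DESeq2. FOXA2, a forkhead pioneer factor, had 772 and 847 counts in shNC against 692 and 661 in shHMGA2-1 and against 4 and 0 in shHMGA2-2. Its relative FOXA1 had 110 and 94, 64 and 68, and 5 and 1 counts. Both fell in shHMGA2-2, by 8.65 and 5.11 on the log2 scale (edgeR adjusted p = 1.23e-18 and 8.45e-11). These sizes rest on 4 and 0 and on 5 and 1 counts in shHMGA2-2, so they are poorly known. GATA3, a luminal factor, rose in the same line from 58 and 41 to 262 and 318 counts (2.47 ± 0.19, adjusted p = 4.29e-11). EHF, an ETS factor of epithelia, had 3 and 2 counts in shNC against 0 and 1 in shHMGA2-1 and against 32 and 37 in shHMGA2-2 (3.64 ± 0.60, adjusted p = 1.26e-05). As EHF reached the minimum count only in shHMGA2-2, where it is high, its test and the counts of its list are a description. OVOL2, which represses ZEB1 in epithelia, had 0 and 1 counts in shNC against 1 and 0 in shHMGA2-1 and against 7 and 4 in shHMGA2-2, and was not tested.

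Among other splicing factors known from EMT, RBM47 changed most. RBM47, an RNA-binding protein that promotes epithelial splice forms, had 4 and 8 counts in shNC against 11 and 9 in shHMGA2-1 and against 168 and 164 in shHMGA2-2. It was 25.7-fold higher in shHMGA2-2 than in shNC (log2 fold change 4.68 ± 0.32 SE, edgeR adjusted p = 4.74e-12), and in shHMGA2-1 it was 0.65 ± 0.52 with an adjusted p of 0.373. RBM47 reached the minimum count only through shHMGA2-2, where it is high, so its test and the counts of its list are a description. Of 18 such factors, 17 were tested, and 7 rose and 7 fell in shHMGA2-2, with a median of 0.02 beside 0.03 over all tested genes. The rising count was 4 without the second shNC library. In shHMGA2-1, 3 rose and 3 fell; 1 rose when either shNC or either shHMGA2-2 library was left out or with DESeq2, and 6 fell without the second shHMGA2-1 library. CELF2, MBNL3 and MBNL1 fell in shHMGA2-2 by 1.94 ± 0.12, 1.81 ± 0.14 and 1.10 ± 0.08 on the log2 scale (adjusted p = 5.88e-13, 3.78e-11 and 3.02e-11). MBNL1, a muscleblind protein, had 5987 and 6062 counts in shNC against 3663 and 4469 in shHMGA2-1 and against 3099 and 2823 in shHMGA2-2, so that its lines were apart. QKI, which favours mesenchymal splice forms, had 3828 and 4025, 3310 and 3991, and 3264 and 3086 counts, and fell in shHMGA2-2 (-0.39 ± 0.08, adjusted p = 0.000223). This call was lost with limma at either pseudocount (adjusted p = 0.061 and 0.0591).

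The genes whose exons ESRP proteins choose can be described here by their whole-gene counts only, since the table has no exon or junction counts. Of 14 such genes, 13 were tested, and in shHMGA2-2, 2 rose and 7 fell, with a median of -0.26 beside 0.03. The falling count was 4 with limma at either pseudocount. In shHMGA2-1, 2 rose and 3 fell, with a median of -0.06. Without the first shHMGA2-1 library the falling count there was 5, and without the first shNC library the rising count was 1. ENAH, an actin regulator, had 3421 and 3423 counts in shNC against 2750 and 2876 in shHMGA2-1 and against 868 and 889 in shHMGA2-2. It fell in both lines (-0.36 ± 0.07 and -2.04 ± 0.07, edgeR adjusted p = 0.000207 and 3.03e-17). CD44, a hyaluronan receptor, rose in shHMGA2-2 (0.41 ± 0.06, adjusted p = 1.76e-06) with 11002 and 11193 counts in shNC against 13685 and 14181 in shHMGA2-1 and against 15764 and 15341 in shHMGA2-2. CTNND1, which encodes p120 catenin, fell in shHMGA2-2 (-0.41 ± 0.10, adjusted p = 0.0012; -0.19 and 0.0938 with limma on log2(FPKM + 1)), and CD46, a complement regulator, also fell there (-0.65 ± 0.07, adjusted p = 1.65e-08). FGFR2 had 0 counts in the 4 libraries of shNC and shHMGA2-1 and 4 and 2 in shHMGA2-2. SLC37A2 and MAGI1 fell in shHMGA2-1 (-1.96 ± 0.16 and -0.82 ± 0.11, adjusted p = 8.98e-10 and 1.3e-06).

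Among the tested epithelial genes known as targets of the EMT repressors, more rose than fell in each knockdown line. Of 25, 19 were tested, and in shHMGA2-2, 11 rose and 3 fell, each by at least 2-fold, with a median log2 fold change of 1.22 beside 0.03 over all tested genes. In shHMGA2-1, 12 rose and 2 fell, 5 and 1 of them by at least 2-fold, with a median of 0.69 beside 0.01. DESeq2 and limma on log2(FPKM + 1) each gave 7 that rose there, and of the 10 that remain with a minimum mean FPKM of 1, 6 rose in shHMGA2-1 and 5 in shHMGA2-2. Some of the 19, such as SPINT1 and CLDN3, reached the minimum count only in a line where they are high, so the counts and medians are a description and do not speak for all 25. CDH1 itself had 0 and 0 counts in shNC against 1 and 2 in shHMGA2-1 and against 4 and 3 in shHMGA2-2 and was not tested. SPINT1, a protease inhibitor of epithelia, was at 0 in both libraries of shNC, against counts of 9 and 6 in shHMGA2-1 and of 19 and 27 in shHMGA2-2. Against a floor of 3 counts per library it was at least 2.36-fold and at least 7.23-fold higher (edgeR adjusted p = 0.00319 and 6.69e-06), and the list medians were the same with SPINT1 set at these bounds. Its call in shHMGA2-1 was lost with limma on log2(FPKM + 1) (adjusted p = 0.0876). CLDN3, a tight junction claudin, had 0 and 5 counts in shNC against 15 and 12 in shHMGA2-1 and against 33 and 46 in shHMGA2-2, and rose in the latter (3.84 ± 0.63, adjusted p = 1.31e-05). EPCAM, an epithelial adhesion molecule, rose in shHMGA2-1 (1.00 ± 0.14, adjusted p = 6.49e-06) with 274 and 302 counts, and had 137 and 133 in shHMGA2-2 beside 146 and 127 in shNC. CLDN4, another claudin, fell in both lines, from 241 and 244 counts to 36 and 36 and to 37 and 49 (-2.83 ± 0.19 and -2.57 ± 0.19, adjusted p = 3.35e-11 and 2.08e-11).

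Mesenchymal target genes went both ways. Of 21, 16 were tested, with 5 higher and 8 lower in shHMGA2-2 and a median of -0.15, and 6 higher and 6 lower in shHMGA2-1 and a median of 0.01, which was -0.01 with RLE scaling. Without the second shNC library 3 were higher there. The summed level of the 21 genes was 4636 and 4775 CPM in shNC against 3910 and 3839 in shHMGA2-1 and against 3030 and 2998 in shHMGA2-2. Much of this sum lies in 3 abundant genes, named after their values were seen. Their means in shNC and shHMGA2-2 were 1225 and 637 CPM for AXL, a receptor kinase, 1560 and 729 for MSN, which encodes moesin, and 812 and 450 for NT5E, the CD73 gene, so the sum does not describe the list as a whole. WNT5A, a ligand tied to mesenchymal invasion, had 265 and 250 counts in shNC against 248 and 301 in shHMGA2-1 and against 9 and 13 in shHMGA2-2. It fell by 4.61 on the log2 scale in the latter (edgeR adjusted p = 2.39e-14), a size that rests on few counts there. TGFBI, a matrix protein induced by TGF-β, rose in shHMGA2-2 (2.70 ± 0.20, adjusted p = 3.15e-11). S100A4, a calcium-binding protein of migrating cells, fell in shHMGA2-1 (-2.59 ± 0.29, adjusted p = 1.52e-07) and rose in shHMGA2-2 (1.15 ± 0.19, adjusted p = 1.3e-05). Its counts were 65 and 79 in shNC against 12 and 13 in shHMGA2-1 and against 157 and 182 in shHMGA2-2. COL1A1, a fibrillar collagen chain, rose in shHMGA2-1 (1.60 ± 0.20, adjusted p = 5.65e-07). CDH2, the N-cadherin gene to which EMT cells switch, had 8 and 4 counts in shNC against 0 and 1 in shHMGA2-1 and against 4 and 14 in shHMGA2-2 and was not tested.

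Corepressors that SNAI and ZEB proteins recruit changed by under 2-fold. Of 18, all were tested, and 6 rose and 5 fell in shHMGA2-2, beside 29.5% and 29.2% of all tested genes, with a median of -0.003. In shHMGA2-1, 3 rose and 5 fell; 0 rose and 1 fell when either shNC library was left out, 5 rose and 1 fell with upper quartile scaling, and 2 fell without the first shHMGA2-2 library. HDAC1 and KDM1A, which encode a histone deacetylase and a demethylase, rose in shHMGA2-2 (0.90 ± 0.07 and 0.71 ± 0.07, edgeR adjusted p = 2.91e-11 and 3.62e-09), while CTBP2, a binding partner of ZEB proteins, fell (-0.75 ± 0.08, adjusted p = 8.12e-09). CTBP1 of the same list, named after its values were seen, had means of 96.2 CPM in shNC, 88.5 in shHMGA2-1 and 122 in shHMGA2-2. AJUBA, a LIM protein that bridges Snail to its cofactors, fell in both lines (-0.59 ± 0.07 and -0.66 ± 0.07, adjusted p = 5.7e-07 and 2.77e-08). Of 20 kinases, ubiquitin ligases and deubiquitinases that set the stability of these proteins, 19 were tested. In shHMGA2-2, 5 were higher and 5 lower, beside the same 29.5% and 29.2%, and 0 of either changed by 2-fold. The rising count was 3 without the second shNC library. In shHMGA2-1, 5 rose and 2 fell, and 2 and 0 did so without the second shNC library, or 2 and 1 without the first. GSK3B, the kinase that marks Snail for degradation, fell in shHMGA2-2 (-0.73 ± 0.08, adjusted p = 2.05e-08), as did the ligase gene FBXL14 (-0.68 ± 0.17, adjusted p = 0.00116), whereas the deubiquitinase gene OTUB1 rose (0.62 ± 0.09, adjusted p = 2.69e-06). BTRC, for a ligase that acts after GSK3B, rose in shHMGA2-1 (0.59 ± 0.10, adjusted p = 2.71e-05). Protein levels were not measured.

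Of 11 filament genes related or bound to vimentin, 4 were tested, with 1 higher and 3 lower in shHMGA2-2 and 0 and 2 in shHMGA2-1. NES, the nestin gene, had 84 and 82 counts in shNC against 96 and 93 in shHMGA2-1 and against 20 and 19 in shHMGA2-2 (-2.16 ± 0.26, edgeR adjusted p = 1.46e-07). SYNM, which encodes synemin, a partner of vimentin filaments, had 216 and 223, 211 and 253, and 614 and 567 counts (1.35 ± 0.12, adjusted p = 9.82e-10). PLEC and LMNA, for the linker plectin and the nuclear lamins A and C, fell in both lines, by 0.34 ± 0.06 and 0.40 ± 0.06 in shHMGA2-1 and by 0.46 ± 0.06 and 0.29 ± 0.06 in shHMGA2-2. With limma on log2(FPKM + 1) PLEC in shHMGA2-1 and LMNA in shHMGA2-2 did not pass (adjusted p = 0.0548 and 0.0755).

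Markers of other cell types that moved beside the regulators were read in the same way. Of 12 luminal breast markers, 8 were tested, and 3 rose and 3 fell in shHMGA2-2. In shHMGA2-1, 2 rose and 3 fell, and 1 fell without the second shNC library. Their summed level was 368 and 376 CPM in shNC against 399 and 351 in shHMGA2-1 and against 466 and 494 in shHMGA2-2. KRT8 alone had means of 79.2 CPM in shNC and 188 in shHMGA2-2, so the sum does not describe the list as a whole. The median log2 fold change of the tested markers in shHMGA2-2 was -0.12. KRT8 rose (1.25 ± 0.08, edgeR adjusted p = 1.65e-12) and KRT19 fell there (-2.46 ± 0.20, adjusted p = 1.02e-10), both keratins of simple epithelia. Of 10 leukocyte markers 0 were tested and 5 to 8 were at 0 in each library. Of 7 endothelial markers 3 were tested, and EGFL7 rose in shHMGA2-2 (0.97 ± 0.13, adjusted p = 7.83e-07) while PECAM1 fell to at most 2 counts, from 14 and 11 in shNC, a call lost with limma on log2(FPKM + 1) (adjusted p = 0.054). PECAM1 reached the minimum count only in shNC, where it is high, so its tests are a description. In shHMGA2-1, 1 rose, EGFL7 (0.54 ± 0.13, adjusted p = 0.00272, or 0.0607 without the second shNC library), and 1 fell. The part of these markers in the changes of the regulators was not tested.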

How the data were processed

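RNA of 6 MDA-MB-231 libraries was compared, with groups and replicate numbers read from the titles. The library names in the labels differ from the titles, reading WT for shNC, SH2 for shHMGA2-1 and a number for shHMGA2-2. Which hairpin each line carries, and whether the control carries any, therefore rests on the titles. The authors deposited a raw count and an FPKM value for each gene and library. Per the labels the submitters' processing used HISAT2 version 2.2.1, HTSeq version 0.6.1 and GRCh38.p13. The FPKM values were recomputed from the deposited counts within 0.01 for 100% of values. Counts were tested with edgeR version 4.0.16 in R version 4.3.3, with TMM scaling (factors 0.958 to 1.05), filterByExpr by group (minimum count 10), a model with 3 groups and Benjamini-Hochberg adjustment over 16110 genes; the common biological coefficient of variation was 0.0583. The SE of edgeR was taken as the absolute log2 fold change over the square root of the F statistic of its test. It can understate the error of large changes where a line has few counts. A model with a single shHMGA2 group was fitted as well. CPM values use the same scaling. Alternatives were DESeq2 version 1.42.0, upper quartile and RLE scaling, no filter, a minimum mean FPKM of 1, log2(FPKM + 1) and log2(FPKM + 0.1) in limma version 3.58.1, a replicate block and each library left out. Scripts were tested on simulated data.

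The 10 members and the 13 lists around them were chosen with earlier results of these data known. Every member was named, and from each list up to 4 genes with the largest change among those past the threshold against shNC, with CDH1, CDH2, EPCAM, RBM47, QKI, OVOL2, SNAI3, FGFR2, CD44, CTNND1 and HMGA2 in any case. A single gene among those that the rule names is not reported here. The search for microRNA seeds was added after the data were seen. Protein sequences were not analysed here. The chromosome of 99.9% of 58254 gene IDs was the same in GENCODE version 29, which was used for UTRs, and 71.5% had the same start and end.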

Additional observations from a re-analysis of the deposited data

Results flagged for a closer look

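The change against the shared shNC libraries differed between the 2 knockdown lines for 4 regulators, by the test of shHMGA2-2 against shHMGA2-1 itself in edgeR. The difference on the log2 scale, shHMGA2-2 less shHMGA2-1, was 2.43 for SNAI2, -1.20 for ZEB1, -1.02 for ZEB2 and 1.89 for ESRP2. These 4 were flagged because they passed that test at an adjusted p under 0.05. By the same rule 24.5% of all tested genes were higher and 25.7% lower in shHMGA2-2 than in shHMGA2-1. With 2 libraries for each line grown from 1 clone, a difference between shRNAs and a difference between clones cannot be told apart.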

How the results depend on the processing

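Over 272 recomputed changes of the 5 tested regulators, 272 kept their direction and 264 their side of the threshold, while 6 calls were lost and 2 gained. Some of these could hardly change. A library left out may lie outside the comparison, and in the comparison of the single shHMGA2 group no member passed at the start. The count of members called in shHMGA2-1, 1 in the reported fit, was 0 with limma at either pseudocount and 1 to 3 with a library left out, 3 without the second shHMGA2-1 library. A mean FPKM of at least 1, which removes ZEB2 and ESRP2, left 3 members called in shHMGA2-2 and 2 between the knockdown lines. Of all genes, 5388 were called in shHMGA2-1, and 3283 to 5795 with a library left out, where 3283 and 3432 came without the second and the first shNC library. The comparison of the single shHMGA2 group called 848 genes, 2268 with DESeq2, 152 with the replicate block and 4 to 822 with a library left out. It was 4 without either shNC library, 466 without the first shHMGA2-1 library, and 315 and 356 without the first or second of shHMGA2-2; the cause was not tested. The search for CANNTG in place of CACCTG found it in 5 member windows and in 68.7% of all windows, since it allows more letters.

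Upper quartile scaling moved the median log2 change of all genes in shHMGA2-2 from 0.03 to 0.14, and limma on log2(FPKM + 0.1) to 0.14. Of the calls in shHMGA2-1, 47.2% were higher, and 58.8% with upper quartile scaling, and in shHMGA2-2 50.3% and 59.9%, or 60.7% with limma on log2(FPKM + 1). In the single group 44.5% were higher, and 55.7% with upper quartile scaling. Deviations of libraries with the same replicate number had correlations of -0.02, 0.00 and -0.10, which cannot tell whether they shared a batch. The replicate block left the counts of members called at 1, 5, 4 and 0. With 2 libraries a line, and 0 to 12 counts for 5 of the 10 genes, SNAI1, ESRP1, GRHL2, TWIST1 and TWIST2 were not tested in the reported fit. SNAI1 was highest in shHMGA2-2 and ESRP1 in shHMGA2-1, but neither passed without the filter on low counts. Changes of GRHL2, TWIST1 and TWIST2 were beyond the depth.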
